A study of Mus musculus with 14 samples.

Results

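Imprinted growth genes are transcribed mainly from the copy inherited from one parent and take part in control of body growth. The 10 genes examined here, H19, Igf2, Igf2r, Meg3, Rian, Mirg, Cdkn1c, Grb10, Peg3 and Mest, were chosen by name from 54532 genes in the count table of 14 skeletal muscle RNA-seq libraries. All 10 passed the filter on low counts, which kept 15458 genes.

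The libraries came from male FVB/N mice that carried Tet-O-Myc, a human c-Myc transgene silent in the presence of doxycycline. In the overexpression (OE) mice the transgene was driven by Cdh5-tTA, a transactivator under an endothelial promoter, and it was induced by doxycycline withdrawal between 4 and 6 weeks of age. Control (CT) littermates carried Tet-O-Myc without the transactivator. Mice of each genotype received control diet (CTD) or western diet (WD), which gave 3 CT-CTD, 3 CT-WD, 4 OE-CTD and 4 OE-WD libraries. RNA was taken from soleus and gastrocnemius muscle according to the study's methods, and the labels do not say from which muscle each library came. The labels give 20 weeks of diet, whereas the study's text gives a shorter exposure where it describes the transcriptome, so the duration for these libraries is uncertain. The age at the end of the diet is not given in the sources used here. Nothing in the labels ties each library to a separate animal, so p-values measure only the spread between these libraries. All 4 OE-WD columns carry 1 number in their names, 3 of 4 OE-CTD columns carry another, and OE-CTD 4 carries its own. Each CT column has its own number, and those of CT-CTD 1 and CT-WD 1 are adjacent and far from those of the other CT columns. The meaning of these numbers is not given, and what the shared numbers mark cannot be told apart from the group. OE-CTD 4 differs in number from the rest of its group, and it also stood apart from them for Meg3 and Rian. The group sizes in the study's text go with diet, whereas those in the labels go with genotype, and the labels were followed. The study's text also gives the gene Zbtb16 as higher in OE-WD than in CT-WD. By the labels it was lower in that comparison, without passing the adjusted test, and higher in OE-WD than in OE-CTD (values below). Whether the text or the labels are right was not settled, so the names of CT-WD and OE-CTD are uncertain in every comparison. If the names CT-WD and OE-CTD were exchanged, the values of CT-WD against CT-CTD would trade places with those of OE-CTD against CT-CTD, those of OE-WD against CT-WD would trade places with those of OE-WD against OE-CTD, and the interaction would stay as it is.

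Total counts ranged from 21833839 to 28519159 per library. OE-CTD 4 and OE-WD 4 stood apart from the other libraries by their share of mitochondrial counts, 14.9% and 14.5%, against 9.66% to 12.8% in the other 12. Muscle fibre genes were abundant throughout, with creatine kinase Ckm between 11758 and 15874 counts scaled to library size (CPM, normalized by the trimmed mean of M-values, TMM), and the endothelial cadherin gene Cdh5 lay between 74.6 and 117 CPM. Mouse Myc lay between 3.06 and 13.3 CPM, and its differences did not pass the adjusted threshold in any of the 5 comparisons. The mouse annotation holds no human transgene, so mouse Myc does not check the genotype labels.

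H19 and Igf2 are neighbors that share enhancers. CTCF bound to an unmethylated control region keeps those enhancers from Igf2 on the maternal copy, where H19 is transcribed instead. Igf2 is a secreted growth factor, and Igf2r carries it to lysosomes for degradation. Meg3, Rian and Mirg are noncoding RNAs made from the maternal copy of the Dlk1-Dio3 cluster and hold many microRNAs and small nucleolar RNAs. Cdkn1c inhibits cyclin-dependent kinases, Grb10 is an adaptor that restrains the insulin and IGF1 receptors, and Peg3 and Mest are paternally expressed genes for a zinc finger protein and a member of the alpha/beta hydrolase fold family. Expression of many of these genes falls steeply after birth. These libraries do not tell the parental copies apart.

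The members lie in 6 regions of the mouse genome (GRCm38). On the minus strand of chromosome 7 are H19 (ENSMUSG00000000031, chr7:142575529-142578143), Igf2 (ENSMUSG00000048583, chr7:142650766-142666816) and Cdkn1c (ENSMUSG00000037664, chr7:143458339-143461050). The gap between Igf2 and H19 is 72.6 kb, and that between H19 and Cdkn1c is 880 kb. Peg3 (ENSMUSG00000002265, chr7:6703892-6730431, minus strand) is far from them on the same chromosome. On the plus strand of chromosome 12 follow Meg3 (ENSMUSG00000021268, chr12:109541001-109571726), Rian (ENSMUSG00000097451, chr12:109603940-109661716) and Mirg (ENSMUSG00000097391, chr12:109729764-109749460), with gaps of 32.2 kb and 68.0 kb. Mest (ENSMUSG00000051855, chr6:30723547-30748465, plus strand), Grb10 (ENSMUSG00000020176, chr11:11930508-12038683, minus strand) and Igf2r (ENSMUSG00000023830, chr17:12682406-12769664, minus strand) lie alone. Whether the counting used strand is not given in the sources used here, so genes with antisense partners are uncertain. Airn, the antisense RNA over Igf2r, had 75 to 150 counts per library, Copg2, antisense to Mest, had 259 to 399, and Igf2os, antisense to Igf2, had 0 to 10.

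**Figure D1:**
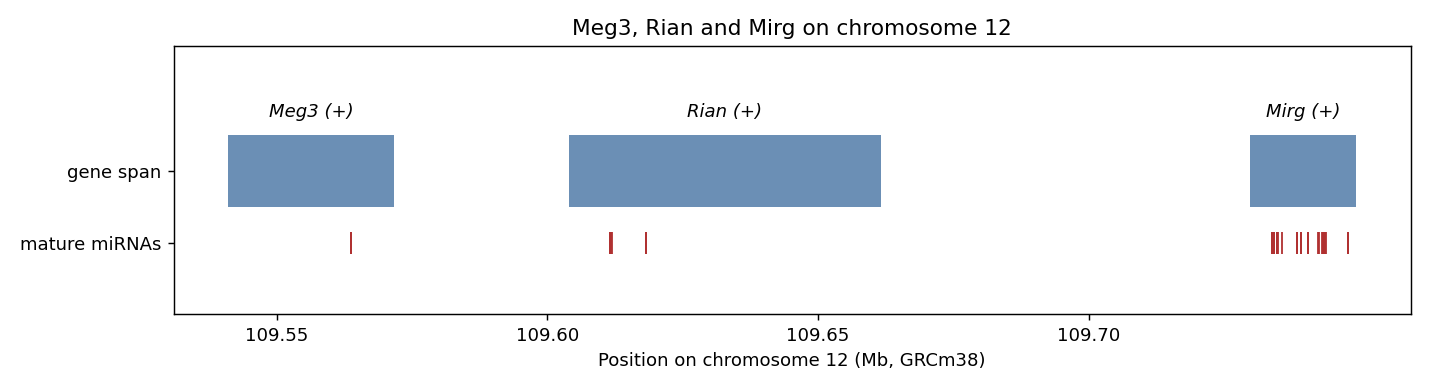
Map of Meg3, Rian and Mirg on chromosome 12 (position in Mb, GRCm38), drawn to scale, with gene spans as bars and the mature miRNAs within them as ticks. Mirg holds 26 of the 40 mature miRNAs found within members, Rian 6 and Meg3 2.

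Levels per gene length were compared in the authors' FPKM (fragments per kilobase of gene length, scaled to library size). H19 was by far the most abundant member, with a median of 185 FPKM over the 14 libraries and a range from 109.6 to 223. Cdkn1c followed at 10.8 FPKM, Igf2r at 8.44 and Grb10 at 3.60. Cdkn1c was above Igf2r in 14 of 14 libraries, although their ranges overlapped. Meg3 (1.39 FPKM), Mest (1.34) and Peg3 (1.21) could not be ordered, since their ranges overlapped with Meg3 above Mest in 7 of 14 libraries and Mest above Peg3 in 7 of 14. Rian had a median of 0.530 FPKM. Igf2 (0.131 FPKM) and Mirg (0.0993) were near the limit of detection, with 3 to 39 and 4 to 27 counts per library, and a difference in either was not well measured at this depth.

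The members also differed in how much they varied among libraries of a group. Igf2r was the steadiest, with an SD within groups of 0.10 on the log2 CPM scale. H19, Cdkn1c, Grb10, Meg3, Rian and Peg3 lay between 0.23 and 0.30. Mest, with 27 to 244 counts, had 0.67, and Igf2 and Mirg had 0.85 and 0.81.

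**Figure D2:**
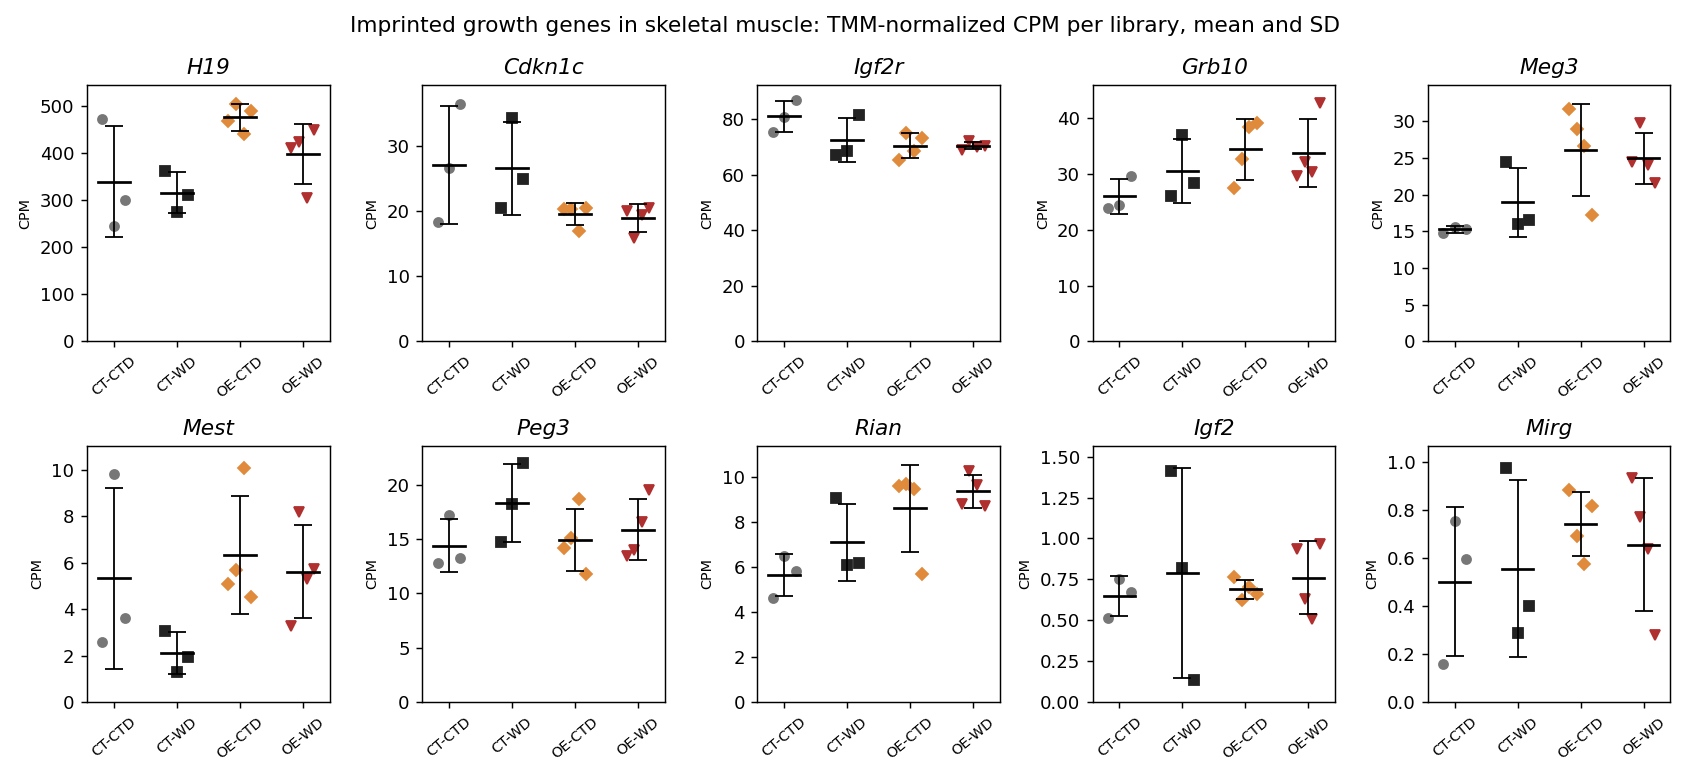
TMM-normalized CPM of each member in each library (points, ordered by replicate within a group), with the group mean and SD (lines) for CT-CTD (n = 3), CT-WD (n = 3), OE-CTD (n = 4) and OE-WD (n = 4). Each vertical axis starts at 0. Meg3 lies between 14.8 and 15.6 CPM in CT-CTD and between 17.1 and 31.6 in OE-CTD.

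OE-CTD against CT-CTD asked how endothelial c-Myc overexpression bore on muscle of mice on control diet. Meg3 rose and was the only member called in edgeR's quasi-likelihood test (fold change over 1.5 with Benjamini-Hochberg adjusted p under 0.05 over all genes that passed the filter, the fit meant by edgeR where no other setting is named), so 1 of 10 members was called against 295 of 15458 genes (1.91%), 183 of them higher and 112 lower. At an unadjusted p under 0.05 with the same fold, 2 of 10 members passed, Meg3 and Rian, against 7.12% of all genes. With no limit on fold, 6 of 10 passed at an unadjusted p under 0.05, with H19, Grb10, Meg3 and Rian higher and Igf2r and Cdkn1c lower, against 15.9% of all genes. The median log2 fold change was 0.33 over the members and -0.00 over all genes tested, and 8 members were higher and 2 lower; without CT-CTD 1 the median of the members was 0.05, with 5 higher and 5 lower.

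Meg3 measured 14.8, 15.6 and 15.3 CPM in the 3 CT-CTD libraries and 31.6, 28.9, 26.6 and 17.1 CPM in the 4 OE-CTD libraries. The groups did not overlap, and OE-CTD 4 lay far closer to the controls than to its own group. The log2 fold change was 0.78 (SE 0.188, a fold change of 1.71, edgeR adjusted p = 0.0402). The call was lost when CT-CTD 1, CT-CTD 2, CT-CTD 3, OE-CTD 1, OE-CTD 2, OE-CTD 3, OE-WD 1 or OE-WD 3 was left out, with log2 fold changes from 0.67 to 0.80 and edgeR adjusted p = 0.0895, 0.129, 0.151, 0.11, 0.12, 0.0987, 0.0533 and 0.0595 in that order, and it was lost in limma on log2(FPKM + 0.1) (0.68, adjusted p = 0.0975) and on log2(FPKM + 1) (0.41, adjusted p = 0.11). Over the 21 settings run, Meg3 kept its sign in 21 and its call in 11, with adjusted p from 0.00126 to 0.151.

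Rian, which follows Meg3 on the same strand, measured 4.63, 6.49 and 5.84 CPM in CT-CTD and 9.62, 9.70, 9.48 and 5.72 CPM in OE-CTD. OE-CTD 1, 2 and 3 were above every CT-CTD library, and OE-CTD 4 was within the control range. The log2 fold change of 0.62 (SE 0.196) did not pass (edgeR adjusted p = 0.117). Without OE-CTD 4 it was 0.77 with edgeR adjusted p = 0.0284. Mirg, the third RNA of the cluster, lay between 0.158 and 0.753 CPM in CT-CTD and between 0.577 and 0.882 CPM in OE-CTD, and its groups overlapped.

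H19 measured 471, 245 and 300.0 CPM in CT-CTD and 468, 504, 439 and 488 CPM in OE-CTD. CT-CTD 1 lay within the OE-CTD range, and the other CT-CTD libraries were below it. The log2 fold change was 0.49 (SE 0.183, edgeR adjusted p = 0.193). Without CT-CTD 1 it was 0.80 and passed (edgeR adjusted p = 0.019), and without CT-CTD 2 it was 0.30. Igf2, which shares the enhancers of H19, lay between 0.514 and 0.753 CPM in CT-CTD and between 0.627 and 0.767 CPM in OE-CTD. Igf2r measured 75.6, 80.9 and 86.9 CPM in CT-CTD and 65.3, 75.1, 68.4 and 73.2 CPM in OE-CTD. All 4 OE-CTD libraries were below the 3 CT-CTD libraries, by a small margin, with a log2 fold change of -0.20 (SE 0.0832, edgeR adjusted p = 0.241).

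Cdkn1c, the kinase inhibitor p57, measured 18.3, 26.6 and 36.5 CPM in CT-CTD and 20.3, 20.3, 17.0 and 20.5 CPM in OE-CTD. The OE-CTD libraries were close together, while CT-CTD libraries spread widely and overlapped with them through CT-CTD 1. Its log2 fold change of -0.47 (SE 0.197, edgeR adjusted p = 0.245) was the lowest of the members, with -0.70 without CT-CTD 1 and -0.20 without CT-CTD 3. Grb10 measured 24.0, 24.4 and 29.6 CPM in CT-CTD and 27.6, 32.7, 38.5 and 39.1 CPM in OE-CTD. OE-CTD 1 lay within the control range and the others above it, with a log2 fold change of 0.40 (SE 0.159, edgeR adjusted p = 0.218). Peg3 (11.8 to 18.7 CPM in OE-CTD, 12.8 to 17.2 in CT-CTD) and Mest (4.54 to 10.1 CPM in OE-CTD, 2.57 to 9.79 in CT-CTD) overlapped between the groups.

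Fibroblast, tendon and macrophage genes were, like Meg3 and Rian, higher in this comparison, although of these lists only Pi16 passed the adjusted test. All 12 of 12 fibroblast genes were higher in OE-CTD than in CT-CTD, with a median log2 fold change of 0.83, 9 of them at an unadjusted p under 0.05 with a fold over 1.5, and Pi16 rose in the adjusted test (0.66, SE 0.163, edgeR adjusted p = 0.0425). Pi16 was not called without CT-CTD 1, 2 or 3 (edgeR adjusted p = 0.0566, 0.17 and 0.169), OE-CTD 1, 2 or 3 (0.0837, 0.131 and 0.131) or OE-WD 1 or 3 (0.0538 and 0.0632), nor in limma on log2(FPKM + 1) (0.0774) or log2(FPKM + 0.1) (0.0682). The summed fibroblast level, led by Gsn in every library, was 1278, 1041 and 894 CPM in CT-CTD and 2175, 2600, 2418 and 1431 CPM in OE-CTD. It was 2478, 1015 and 1021 CPM in CT-WD and 1848, 3774, 2277 and 1648 CPM in OE-WD. No listed fibroblast gene was at 0 in any library, and OE-CTD 4 and CT-WD 1, which stood apart from their groups for Meg3, did so here as well. Tendon genes were higher in 6 of 6 (median 1.46), with a summed level, led by Fmod, of 238, 104 and 166 CPM in CT-CTD and 410.0, 617, 508 and 312 CPM in OE-CTD. The tendon sum was 489.7, 85.1 and 108 CPM in CT-WD, whereas OE-WD had 419, 861, 568 and 307 CPM. Macrophage genes were higher in 8 of 8 (median 0.87), with a summed level, led by Csf1r, of 58.5, 37.7 and 31.2 CPM in CT-CTD and 57.9, 71.4, 89.0 and 66.7 CPM in OE-CTD. The macrophage sum was 95.0, 47.4 and 38.5 CPM in CT-WD and 57.6, 96.1, 59.7 and 70.9 CPM in OE-WD. The fibroblast, tendon and macrophage sums did not follow Meg3 in each library. OE-CTD 1, highest in Meg3, was below CT-CTD 1 in the macrophage sum (57.9 and 58.5 CPM). It was below CT-WD 1 in the fibroblast sum (2175 and 2478 CPM) and the tendon sum (410.0 and 489.7 CPM). None of the tendon and macrophage genes passed the adjusted test in edgeR, 4 tendon and 6 macrophage genes passed at an unadjusted p with a fold over 1.5, and none of these genes was at 0 in any library. Their part in the result was not tested. In bulk muscle, more cells of a type and more RNA per cell cannot be told apart.

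**Figure D3:**
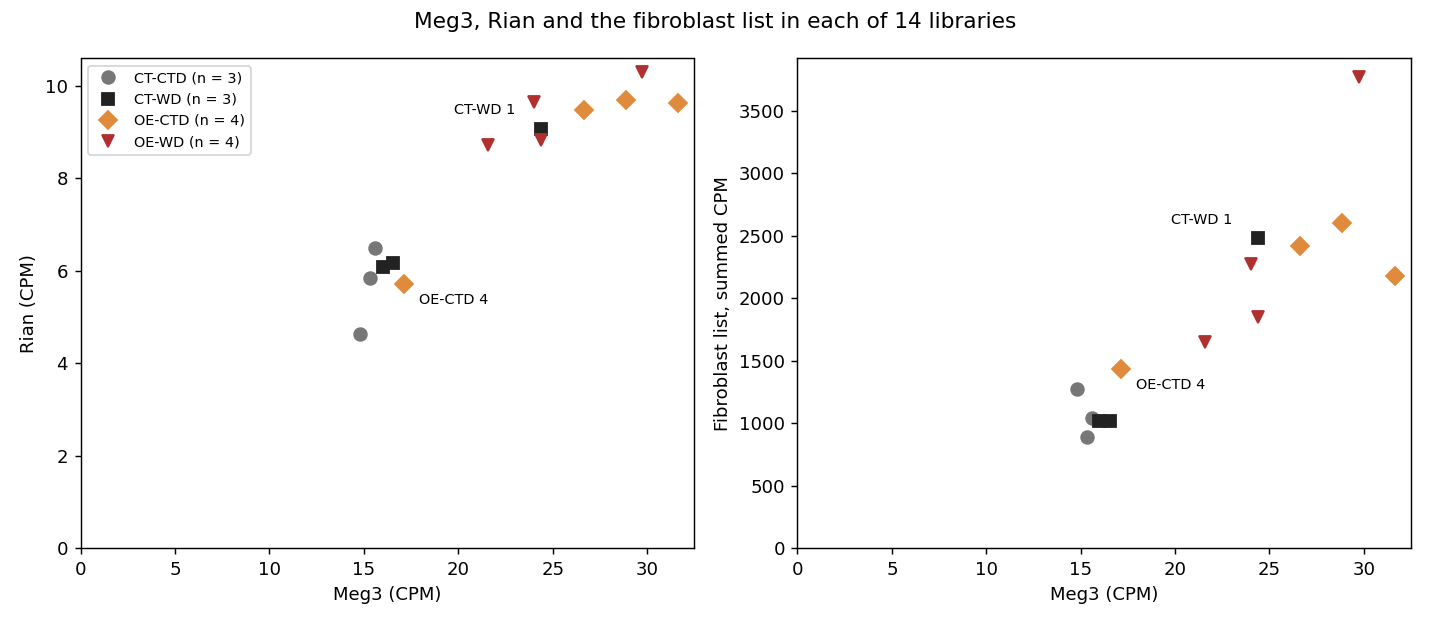
Meg3 (horizontal axis, CPM) against Rian (left, CPM) and against the summed CPM of 12 fibroblast genes (right) in each of the 14 libraries, with symbols for the 4 groups. CT-WD 1 (24.4 CPM of Meg3) lies with most OE libraries and OE-CTD 4 (17.1 CPM) with the CT libraries in both plots.

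With all libraries, the medians of the other cell types were smaller in size in OE-CTD against CT-CTD. The lists were not tested against each other. Endothelial genes were higher in 12 of 13 (median 0.26), and Tek, a receptor of angiopoietins, rose below the fold limit (0.52, SE 0.110, edgeR adjusted p = 0.0232). Tek did not pass without CT-CTD 2 or 3 (edgeR adjusted p = 0.111 and 0.0941) or without OE-CTD 1, 2 or 3 (0.0563, 0.0683 and 0.0529). Among 13 satellite cell and regeneration genes (median 0.07) Actc1, the cardiac actin that marks immature fibers, rose (1.38, SE 0.353, edgeR adjusted p = 0.0493) and Myod1, a myogenic transcription factor, fell (-0.69, SE 0.160, edgeR adjusted p = 0.0346). Actc1 was not called without any single CT-CTD library (edgeR adjusted p = 0.137, 0.103 and 0.173 without 1, 2 and 3), any single OE-CTD library (0.0655, 0.134, 0.123 and 0.0603 without 1, 2, 3 and 4) or OE-WD 1, 2 or 3 (0.0571, 0.063 and 0.0505), with the replicate block (0.0635) or in limma on log2(FPKM + 1) and log2(FPKM + 0.1) (0.0872 and 0.0761). Myod1 was not called without CT-CTD 2 or 3 (edgeR adjusted p = 0.19 and 0.133), without any single OE-CTD library (0.0656, 0.106, 0.0748 and 0.0573 without 1, 2, 3 and 4), without OE-CTD 4 and OE-WD 4 together (0.0621) or in limma on the same scales (0.0885 and 0.081). Slow fibre genes were higher in 10 of 10 with a median of 0.24, fast fibre genes in 7 of 12 (0.01), muscle fibre genes in 3 of 7 (-0.01) and smooth muscle and pericyte genes in 7 of 9 (0.17). Schwann cell genes were higher in 6 of 7 (0.17), adipocyte genes in 1 of 7 (-0.26) and epidermis genes in 3 of 7 (-0.19). Single libraries turned the direction of several of these medians, to 0.37 for adipocyte and 1.66 for epidermis genes without CT-CTD 1, to -0.15 for Schwann cell genes without CT-CTD 2, to -0.11 for satellite cell genes without CT-CTD 3, to -0.05 for fast fibre genes without OE-CTD 4, and to 0.04 for muscle fibre genes without OE-CTD 3. Muscle fibre genes had a median of -0.15 without OE-CTD 4, and without CT-CTD 2 slow fibre genes were higher in 7 of 10 (0.14) and smooth muscle and pericyte genes in 5 of 9 (0.11).

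Genes of the same pathways are set beside the 1.91% of all genes called in OE-CTD against CT-CTD and the 7.12% that passed at an unadjusted p with a fold over 1.5. Of 54 other imprinted genes that passed the filter, among 74 listed, 1 rose and 0 fell in the adjusted edgeR test, 5 were higher and 3 lower at an unadjusted p with a fold over 1.5, and the median was -0.02; Dcn is in this list and in the fibroblast list. The gene that rose was Ampd3, an AMP deaminase (0.75, SE 0.139, edgeR adjusted p = 0.0112), with 23.6, 23.1 and 20.4 CPM in CT-CTD and 36.1, 32.0, 40.7 and 41.8 in OE-CTD, without overlap. Without CT-CTD 3 it had edgeR adjusted p = 0.0768. Of 20 IGF and insulin signalling genes (median 0.06, and 0.18 without CT-CTD 3), 2 were called. Htra1, a secreted protease that cleaves IGF-binding proteins, fell (-0.85, SE 0.179, edgeR adjusted p = 0.0227), and Stc1, stanniocalcin-1, rose (1.78, SE 0.442, edgeR adjusted p = 0.0443) from a low level of 0.502 to 0.596 CPM in CT-CTD. Htra1 measured 57.1, 88.7 and 115 CPM in CT-CTD and 43.5, 50.6, 48.0 and 50.6 CPM in OE-CTD. Htra1 was not called without CT-CTD 2 (edgeR adjusted p = 0.0838), CT-CTD 3 (0.141), OE-CTD 1 (0.0637), OE-CTD 2 (0.0572) or OE-CTD 3 (0.0642), nor in limma on log2(FPKM + 1) (0.0698) or log2(FPKM + 0.1) (0.0627). Stc1 was not called without CT-CTD 1, 2 or 3 (edgeR adjusted p = 0.0917, 0.17 and 0.16), OE-CTD 2, 3 or 4 (0.0725, 0.137 and 0.0648) or OE-WD 2, 3 or 4 (0.0575, 0.0602 and 0.0518), without OE-CTD 4 and OE-WD 4 together (0.0655), with the replicate block (0.0578) or in limma on the same scales (0.169 and 0.099). Of the 6 genes of the Dlk1-Dio3 cluster that passed the filter (median 0.59), Meg3 alone was called, and Rtl1 was too low to be tested. This list includes the members Meg3, Rian and Mirg, so it is not separate from them. The others tested had low counts per library, 1 to 13 for Dio3, 10 to 43 for Dlk1 and 11 to 39 for Begain.

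The remaining lists had 0 calls in edgeR in OE-CTD against CT-CTD. Among 6 CDK inhibitors (median -0.36, and -0.11 without CT-CTD 3) the highest was Cdkn2b (0.33, SE 0.331, edgeR adjusted p = 0.692) and the lowest Cdkn1c. All 3 Grb7 family adaptors were higher (median 0.41), from Grb10 up to Grb14, which binds the same receptors (0.45, SE 0.141, edgeR adjusted p = 0.114). Among 9 genes of CTCF and imprint maintenance (median 0.01) the highest was Zfp57 (0.39, SE 0.407, edgeR adjusted p = 0.706) and the lowest the DNA methyltransferase gene Dnmt3b (-0.71, SE 0.292, edgeR adjusted p = 0.241). Without CT-CTD 1 the median of this list was -0.08, and Zfp57 ran from 0.14 to 0.69 over single libraries left out. The count of 295 genes was 99 without CT-CTD 2, 64 without CT-CTD 3, 170 without OE-CTD 1, 102 without OE-CTD 2 and 102 without OE-CTD 3. More of the genes called were lower than higher without CT-CTD 1 (128 higher, 144 lower), CT-CTD 2 (46 and 53), CT-CTD 3 (29 and 35) or OE-CTD 3 (49 and 53).

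OE-WD against CT-WD asked the same under western diet. In edgeR 0 of 10 members were called (1 with DESeq2) against 87 of 15458 genes (0.563%), 39 higher and 48 lower. At an unadjusted p under 0.05 with a fold over 1.5, 1 of 10 members passed, Mest, against 5.74% of all genes. With any fold, 2 of 10 passed, Mest higher and Cdkn1c lower, against 16.9% of all genes. The median log2 fold change was 0.18 over the members (0.53 without CT-WD 1 and 0.08 without CT-WD 3) and 0.01 over all genes. The count of 87 genes was 905 without CT-WD 1, 13 without CT-WD 2, 7 without CT-WD 3, 53, 43 and 57 without OE-CTD 1, 2 and 3, and 4, 6 and 13 without OE-WD 2, 3 and 4. Without CT-WD 1, 598 were higher and 307 lower (66.1% higher), and without CT-WD 2, 2 were higher and 11 lower. DESeq2 called 290 genes, of which 161 were higher and 129 lower (55.5% higher, against 44.8% in edgeR).

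Mest measured 3.07, 1.30 and 1.96 CPM in CT-WD and 3.27, 8.17, 5.27 and 5.74 CPM in OE-WD. The groups did not overlap, although CT-WD 1 and OE-WD 1 were close. The log2 fold change was 1.39 (SE 0.458, a fold change of 2.62, edgeR adjusted p = 0.148), the highest of the members. The difference passed with DESeq2 (1.40, adjusted p = 0.0322) and with no filter in edgeR (1.39, adjusted p = 0.0119). Cdkn1c measured 20.4, 34.4 and 24.9 CPM in CT-WD and 20.1, 15.8, 19.4 and 20.5 CPM in OE-WD, and CT-WD 1 lay within the OE-WD range. Its log2 fold change of -0.49 (SE 0.197, edgeR adjusted p = 0.229) was the lowest, with -0.26 without CT-WD 2.

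Meg3 measured 24.4, 16.0 and 16.5 CPM in CT-WD and 24.4, 29.7, 24.0 and 21.6 CPM in OE-WD. CT-WD 1 lay among the OE-WD libraries, and the other CT-WD libraries were below all of them. Rian measured 9.07, 6.09 and 6.18 CPM in CT-WD and 8.83, 10.3, 9.66 and 8.72 CPM in OE-WD, with the same library apart. Neither passed an unadjusted p of 0.05 (log2 fold change 0.39 for both). Without CT-WD 1 the values were 0.62 for Meg3 (edgeR adjusted p = 0.054) and 0.61 for Rian (edgeR adjusted p = 0.0682). Members that passed at an unadjusted p with a fold over 1.5 then rose from 1 to 4, while all genes that passed rose from 887 to 1875 of 15458. H19 lay between 275 and 362 CPM in CT-WD and between 304 and 449 in OE-WD, Igf2r between 67.3 and 81.6 and between 69.1 and 72.1, Grb10 between 26.1 and 37.1 and between 29.6 and 42.8, and Peg3 between 14.8 and 21.96 and between 13.4 and 19.5, all with overlap. Igf2 (0.133 to 1.41 CPM in CT-WD, 0.510 to 0.964 in OE-WD) and Mirg (0.290 to 0.976, 0.281 to 0.934) overlapped as well.

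Fibroblast genes were higher in 11 of 12 in OE-WD against CT-WD (median 0.50), tendon genes in 6 of 6 (1.18), macrophage genes in 7 of 8 (0.12), endothelial genes in 8 of 13 (0.18), adipocyte genes in 5 of 7 (0.61) and epidermis genes in 6 of 7 (0.86). Without CT-WD 1 the medians were 0.93 for fibroblast, 3.20 for tendon, 0.58 for macrophage, 1.65 for adipocyte and 2.83 for epidermis genes, and without CT-WD 3 those of macrophage and adipocyte genes were -0.05 and 0.29. Without OE-WD 3 that of epidermis genes was 0.42, with 5 of 7 higher. Cdh5, whose promoter drives the transactivator, rose below the fold limit (0.46, SE 0.0905, edgeR adjusted p = 0.0322). Cdh5 did not pass without CT-WD 2 or 3 (edgeR adjusted p = 0.135 and 0.142), without OE-WD 2, 3 or 4 (0.111, 0.0961 and 0.0683) or in limma on log2(FPKM + 0.1) (0.0537). None of the genes in the other lists was called here in edgeR with the filter on low counts and all 14 libraries. Among imprinted genes the highest was Sfmbt2 (2.64, SE 0.922, edgeR adjusted p = 0.169) and the lowest Slc22a3 (-1.60, SE 0.386, edgeR adjusted p = 0.0651), which passed with DESeq2 (-1.61, adjusted p = 0.00282), with no filter in edgeR (adjusted p = 0.000313) and without CT-WD 1 (edgeR adjusted p = 0.00543). Slc22a3 was -0.65 without CT-WD 3, where it measured 25.1 CPM against 5.89 and 7.34 CPM in the other CT-WD libraries. Within the Dlk1-Dio3 cluster all 6 genes tested were higher (median 0.39, and 0.75 without CT-WD 1), from Mirg (0.21, SE 0.523, edgeR adjusted p = 0.877) to Dio3 (1.02, SE 0.599, edgeR adjusted p = 0.413). The members Meg3, Rian and Mirg are among them, and Dio3 had only 1 to 13 counts per library. Among IGF genes Igfbp5 was highest (0.58, SE 0.226, edgeR adjusted p = 0.213, and 0.0348 without CT-WD 1) and Igf2bp3 lowest (-1.12, SE 0.562, edgeR adjusted p = 0.331). Of the CDK inhibitors 5 of 6 were lower, with Cdkn2c highest (0.01, SE 0.153, edgeR adjusted p = 0.99) and Cdkn1a, the inhibitor p21, lowest (-1.12, SE 0.387, edgeR adjusted p = 0.164). Cdkn1a passed with no filter in edgeR (-1.13, adjusted p = 0.00687) and without CT-WD 1 (edgeR adjusted p = 0.0452). Grb14 was higher (0.47, SE 0.142, edgeR adjusted p = 0.122, and 0.0288 without OE-WD 1) and Grb7 lower (-0.29, SE 0.629, edgeR adjusted p = 0.852). In the imprint maintenance list Ctcfl was highest (0.42, SE 0.456, edgeR adjusted p = 0.688) and Zfp445 lowest (-0.20, SE 0.0935, edgeR adjusted p = 0.305).

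CT-WD against CT-CTD asked how western diet bore on control muscle. In edgeR 0 of 10 members and 0 of 15458 genes (0%) were called, and DESeq2 called 0 members and 27 genes. At an unadjusted p under 0.05 with a fold over 1.5, 1 of 10 members, Mest, and 471 genes (3.05%) passed, and with any fold 1 of 10 members against 7.28% of all genes. Mest measured 2.57, 9.79 and 3.61 CPM in CT-CTD and 3.07, 1.30 and 1.96 CPM in CT-WD. CT-CTD 2 was far above the rest, and the groups overlapped through CT-CTD 1 and CT-WD 1. The log2 fold change was -1.31 (SE 0.482, edgeR adjusted p = 0.595), and -0.53 without CT-CTD 2. Peg3 was the highest member, with 12.8, 17.2 and 13.2 CPM in CT-CTD and 14.8, 18.2 and 21.96 CPM in CT-WD and a log2 fold change of 0.34 (SE 0.191, edgeR adjusted p = 0.774), which was 0.19 without CT-WD 3. The groups overlapped. Whether the replicate numbers mark true pairs was not shown. Between same-numbered libraries Peg3 and Meg3 were higher in CT-WD in 3 of 3 and Igf2r was lower in 3 of 3, whereas the other members were mixed. The share of all genes with 1 direction in 3 of 3 was not computed, so these counts are not read as a result about the members. With the replicate block Peg3, Meg3 and Igf2r did not pass (edgeR adjusted p = 0.637, 0.611 and 0.58). The median was 0.21 over the members and 0.01 over all genes, and 6 members were higher and 4 lower; without CT-WD 1 the median of the members was -0.01.

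In the same comparison fibroblast genes were higher in 12 of 12 (median 0.48), tendon genes in 6 of 6 (0.55), macrophage genes in 8 of 8 (0.55) and epidermis genes in 7 of 7 (0.84), and adipocyte genes were lower in 7 of 7 (-0.87). The former rested on CT-WD 1, without which 6 of 12 fibroblast genes (median -0.08), 1 of 6 tendon genes (-1.34), 5 of 8 macrophage genes (0.03) and 3 of 7 epidermis genes (-1.04) were higher. Endothelial genes were higher in 12 of 13 (median 0.23), and in 10 of 13 (0.15) without CT-WD 1. The adipocyte median was -1.92 without CT-WD 1 and -0.19 without CT-CTD 1. None of the genes in these lists was called in edgeR. Among imprinted genes the highest was Slc22a3 (1.18, SE 0.415, edgeR adjusted p = 0.574, and 0.23 without CT-WD 3) and the lowest Sfmbt2 (-1.99, SE 1.01, edgeR adjusted p = 0.733). Over the 12 fits without a single library that tested it, Sfmbt2 ran from -2.40 to -0.80. Within the Dlk1-Dio3 cluster Rian was highest (0.34, SE 0.209, edgeR adjusted p = 0.827) and Begain lowest (-0.47, SE 0.444, edgeR adjusted p = 0.899). Irs2, a substrate of the insulin receptor, was the highest of the IGF and insulin genes (1.49, SE 0.395, edgeR adjusted p = 0.427), and Igfbp5 the lowest (-0.45, SE 0.239, edgeR adjusted p = 0.757). Irs2 passed with no filter in edgeR (adjusted p = 0.000971), and it measured 167 CPM in CT-WD 3 against 42.6 and 45.5 CPM in the other CT-WD libraries, with a log2 fold change of 0.54 without CT-WD 3. Among CDK inhibitors the range ran from Cdkn2c (-0.32, SE 0.163) to Cdkn1a (0.55, SE 0.414), among Grb7 family adaptors from Grb14 (-0.22, SE 0.151) to Grb7 (0.27, SE 0.675), and in the imprint maintenance list from Ctcfl (-0.83, SE 0.473) to Zfp57 (0.36, SE 0.435). Over single libraries left out, Cdkn2c ran from -0.49 to -0.14, Cdkn1a from 0.16 to 1.35 and Grb14 from -0.29 to -0.11. Ctcfl ran from -1.42 to -0.55 and Zfp57 from 0.16 to 0.65.

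OE-WD against OE-CTD asked how western diet bore on muscle with endothelial c-Myc overexpression. In edgeR 0 of 10 members were called against 1 of 15458 genes (0.00647%), and DESeq2 called 0 members and the same gene. That gene, named after its values were seen, was the transcription factor gene Zbtb16, with 39.3 to 46.6 CPM in OE-CTD and 89.5 to 131 CPM in OE-WD (1.23, SE 0.146, edgeR adjusted p = 0.00559). It measured 79.5 to 98.8 CPM in CT-CTD and 117 to 181 CPM in CT-WD, with log2 fold changes of -1.02 in OE-CTD against CT-CTD (edgeR adjusted p = 0.00575) and -0.53 in OE-WD against CT-WD (edgeR adjusted p = 0.111, and 0.0191 and 0.0316 without CT-WD 1 and OE-WD 1). The study's text gives Zbtb16 as higher in OE-WD than in CT-WD, which is the direction that exchanged names of CT-WD and OE-CTD would give. In OE-WD against OE-CTD Zbtb16 was not called without OE-CTD 1 (edgeR adjusted p = 0.0548) or without OE-CTD 4 and OE-WD 4 together (0.108). At an unadjusted p under 0.05 with a fold over 1.5, 0 of 10 members passed in edgeR against 1.37% of all genes, and with any fold 0 of 10 against 4.2%. The highest member was Igf2, with a log2 fold change of 0.14 (SE 0.457, edgeR adjusted p = 1) at 12 to 24 counts in OE-WD and 13 to 20 in OE-CTD. The lowest was H19, with 468, 504, 439 and 488 CPM in OE-CTD and 410.2, 423, 304 and 449 CPM in OE-WD (-0.26, SE 0.167, edgeR adjusted p = 1). OE-WD 4 lay within the OE-CTD range and the others below it, and without OE-WD 3 the value was -0.15. Median log2 fold changes were -0.04 over the members, with 3 higher and 7 lower, and 0.00 over all genes. Without OE-WD 1 the median of the members was 0.01, with 6 higher and 4 lower.

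None of the listed genes was called in OE-WD against OE-CTD in edgeR. Fibroblast genes were higher in 9 of 12 (median 0.10), tendon genes in 5 of 6 (0.21), endothelial genes in 9 of 13 (0.11) and epidermis genes in 7 of 7 (1.34, and 0.82 without OE-WD 3). Slow fibre genes were lower in 9 of 10 (-0.15) and satellite cell and regeneration genes in 10 of 13 (-0.16). Without OE-WD 3 the medians of satellite cell and endothelial genes were -0.06 and 0.07. Without OE-WD 2 the medians of fibroblast and tendon genes were -0.12 and -0.10. The highest and lowest were Kcnq1 (1.07, SE 0.419) and Slc22a2 (-1.55, SE 0.561) among imprinted genes, Dlk1 (0.22, SE 0.364) and Mirg (-0.17, SE 0.472) in the Dlk1-Dio3 cluster, and Htra1 (0.23, SE 0.167) and Insrr (-0.68, SE 0.686) among IGF and insulin genes. In the small lists they were Cdkn2d (0.08, SE 0.140) and Cdkn1a (-0.15, SE 0.365), Grb10 (-0.03, SE 0.145) and Grb7 (-0.44, SE 0.576), and Dnmt3b (0.51, SE 0.275) and Ctcfl (-0.59, SE 0.390). Each of these had edgeR adjusted p = 1.

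The diet by genotype interaction tested whether the diet difference itself differed between genotypes. In edgeR 0 of 10 members and 0 of 15458 genes (0%) passed, and DESeq2 called 0 members and 1 gene. This was Mylk4, a myosin light chain kinase family gene named after its values were seen (0.77, DESeq2 adjusted p = 0.00265; edgeR adjusted p = 0.675, and 0.032 with no filter on low counts). At an unadjusted p under 0.05 with a ratio of folds over 1.5, 0 of 10 members and 417 genes (2.7%) passed in edgeR, and with any ratio 0 of 10 members against 5.92% of all genes. Mest had the highest value among members (1.14, SE 0.617, edgeR adjusted p = 0.857) and Meg3 the lowest (-0.39, SE 0.261, edgeR adjusted p = 0.893). The difference in Meg3 between OE and CT was therefore not shown to differ between diets. Without CT-CTD 2 the Mest value was 0.36, and that of Meg3 was -0.16 without CT-WD 1 and -0.54 without OE-CTD 4.

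Elsewhere in the interaction the fibroblast list was below 0 in 12 of 12 (median -0.36), macrophage in 8 of 8 (-0.54) and tendon in 6 of 6 (-0.23), whereas adipocyte genes were above 0 in 6 of 7 (0.76) and epidermis genes in 5 of 7 (0.25). Without CT-WD 1 these medians were 0.06 for fibroblast, 0.13 for macrophage, 1.54 for tendon, 1.90 for adipocyte and 2.80 for epidermis genes, with 7 of 12, 5 of 8, 5 of 6, 6 of 7 and 6 of 7 above 0. Without CT-CTD 1 they were 0.08 for adipocyte and -0.72 for epidermis genes. Sfmbt2 (2.93, SE 1.22) and Slc22a2 (-1.49, SE 0.851) bounded the imprinted genes, Begain (0.35, SE 0.583) and Meg3 the Dlk1-Dio3 cluster, and Igfbp5 (0.58, SE 0.316) and Irs2 (-1.50, SE 0.515) the IGF and insulin genes. Cdkn2c (0.37, SE 0.216) and Cdkn1a (-0.70, SE 0.552), Grb14 (0.02, SE 0.198) and Grb7 (-0.71, SE 0.887), and Dnmt3b (0.93, SE 0.415) and Zfp57 (-0.29, SE 0.57) bounded the small lists. None passed the adjusted test in edgeR, whereas Irs2 passed with no filter (-1.50, adjusted p = 0.0495) and was -0.56 without CT-WD 3.

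Levels of Meg3 and Rian split the 14 libraries in the same way. CT-CTD 1 to 3, CT-WD 2, CT-WD 3 and OE-CTD 4 were low for both, and the other 8 libraries were high. Each gap was at least 0.25 of the range of log2 CPM with at least 6 libraries on either side, a criterion chosen after the values were seen. Pairs with either gene, 17 of 45, are therefore given no correlation over all libraries. Within sets cut by the levels of these genes their relations cannot be tested, and no value within sets is given. The remaining 28 of 45 pairs were correlated over all libraries.

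Over all 14 libraries, 0 of 28 pairs passed the adjusted permutation test and 1 passed unadjusted by Pearson's r. That pair was H19 and Cdkn1c, 880 kb apart, with r = -0.70 (permutation p = 0.00437, adjusted p = 0.122) and rho = -0.47 (permutation p = 0.0902, adjusted p = 0.849). Without CT-CTD 2 and CT-WD 2, the libraries farthest from the median of H19, r was -0.58, and for deviations from group means it was -0.56. By Spearman's rho, Igf2 and Igf2r passed unadjusted (rho = -0.58, permutation p = 0.0317, adjusted p = 0.849), whereas r = -0.52 did not (permutation p = 0.0611), with r = -0.27 without CT-WD 3 and CT-WD 1 and r = -0.66 for deviations from group means. H19 and Igf2 had r = 0.15 (permutation p = 0.643, adjusted p = 0.876) and rho = -0.14 (permutation p = 0.628). Igf2 and Cdkn1c had r = -0.06 (permutation p = 0.823, adjusted p = 0.937) and rho = 0.21 (permutation p = 0.474).

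Genes with the most similar pattern were named by Pearson's r of log2 CPM over 14 libraries, among 12746 genes with a mean of at least 1 CPM, as a description with no test. Meg3 was followed by Fstl1, Islr and Rian, and Rian by Meg3, Trim55 and Cd34, with no r given because the libraries fall into separate sets. Mest was most like Mcam (r = 0.91), an adhesion molecule of vessels, Fam198b (0.89) and Tmem88 (0.89). H19 was most like Acad12 (0.89), Casq2 (0.87), the calsequestrin of slow and cardiac muscle, and Impa2 (0.86). Cdkn1c was most like Gpr179 (0.91), Syngr2 (0.89) and 2310061I04Rik (0.88), and Grb10 like Atp6v0a1 (0.89), Snx8 (0.85) and the clock gene Per1 (0.84). Igf2r was nearest to Sms-ps (0.89), Dars (0.86) and Ergic2 (0.86), and Peg3 to Gm8210 (0.85), Nsmf (0.83) and Dqx1 (0.79). At their low counts, Igf2 was near to Setdb1 (0.93) and Zfp523 (0.86), and Mirg to Ube2e2 (0.78), Rrad (0.78) and Akr1b10 (0.78).

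Several members are hosts of miRNAs, which regulate other transcripts through a seed at bases 2 to 8. RefSeq (GRCm38.p6) placed 21 hairpins with 40 mature miRNAs within the members on their strand, 14 hairpins in Mirg, 3 in Rian and 1 each in H19, Igf2, Meg3 and Mest. Poly-A libraries do not measure mature miRNAs, and the hairpins' own rows had at most 4 counts in any library. The sequences below belong to members whose levels are described above, with the seed in capitals. Only 1 seed was shared, by miR-453 and miR-496a-5p of Mirg.
mmu-miR-675-5p (H19, chr7:142577112-142577133, minus strand): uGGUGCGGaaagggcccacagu
mmu-miR-675-3p (H19, chr7:142577078-142577099, minus strand): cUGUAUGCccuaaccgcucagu
mmu-miR-335-5p (Mest, chr6:30741314-30741336, plus strand): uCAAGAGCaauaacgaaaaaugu
mmu-miR-335-3p (Mest, chr6:30741354-30741375, plus strand): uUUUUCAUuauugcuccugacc
mmu-miR-770-5p (Meg3, chr12:109563710-109563731, plus strand): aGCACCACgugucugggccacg
mmu-miR-370-3p (Rian, chr12:109618305-109618326, plus strand): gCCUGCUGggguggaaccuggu
mmu-miR-453 (Mirg, chr12:109735669-109735692, plus strand): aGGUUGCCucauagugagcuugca
mmu-miR-496a-5p (Mirg, chr12:109739132-109739152, plus strand): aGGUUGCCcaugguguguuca

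Promoters of 300 bases from RefSeq (GRCm38.p6) were matched for 8 of 10 members, 15 in all; H19 and Cdkn1c were named only. The motifs searched on both strands were CACGTG, the E-box that c-Myc with Max is known to bind, and TGACGTCA, the cAMP response element; both are palindromes and do not overlap each other. CACGTG was found in 1 of 15 member promoters, that of Igf2r with 2 copies, against 7.15% of 32851 mouse promoters. TGACGTCA was found in 2 of 15, a Meg3 and the Peg3 promoter, against 1.79% of all. A match describes the sequence and does not show a bound site. The Meg3 and Rian promoters are shown because these genes had like levels across libraries, and the Igf2r promoter for its E-boxes, each 5′ to 3′ on the gene's strand with motifs in capitals. CG dinucleotides numbered 13 in the Meg3 promoter shown and 1 in the other (chr12:109545148-109545447), which holds neither motif, 0 in that of Rian and 34 in that of Igf2r, with a median of 7 over all promoters.
Meg3 promoter (chr12:109540746-109541045, plus strand): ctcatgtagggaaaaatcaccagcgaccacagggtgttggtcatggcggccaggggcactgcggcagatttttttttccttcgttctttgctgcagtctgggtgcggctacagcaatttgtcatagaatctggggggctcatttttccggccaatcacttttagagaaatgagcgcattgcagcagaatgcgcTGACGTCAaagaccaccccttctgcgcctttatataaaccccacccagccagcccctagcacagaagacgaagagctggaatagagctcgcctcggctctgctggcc
Rian promoter (chr12:109603695-109603994, plus strand): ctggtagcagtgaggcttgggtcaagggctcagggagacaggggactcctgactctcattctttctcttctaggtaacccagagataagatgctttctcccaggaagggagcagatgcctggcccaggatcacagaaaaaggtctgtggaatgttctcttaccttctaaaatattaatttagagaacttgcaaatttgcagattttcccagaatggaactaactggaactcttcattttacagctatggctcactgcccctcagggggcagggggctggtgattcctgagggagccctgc
Igf2r promoter (chr17:12769657-12769956, minus strand): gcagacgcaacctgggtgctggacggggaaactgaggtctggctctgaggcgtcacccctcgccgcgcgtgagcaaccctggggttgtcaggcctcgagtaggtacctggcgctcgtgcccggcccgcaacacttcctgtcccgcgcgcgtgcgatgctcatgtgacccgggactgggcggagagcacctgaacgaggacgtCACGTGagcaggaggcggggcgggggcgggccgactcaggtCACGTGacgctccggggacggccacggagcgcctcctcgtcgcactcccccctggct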

How the data were processed

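Messenger RNA was purified with poly-T beads by the authors. Their deposited table of raw counts per gene and their deposited FPKM table were used; the submitters' processing notes name HISAT2 2.0.5, featureCounts 1.5.0-p3 and mm10. Annotation release and strand setting are not given in the sources used here. The FPKM values are counts per kilobase of gene length scaled to a library total, which the authors chose and which was 79.9% to 98.0% of the summed counts.

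Counts were analysed in R 4.3.3 with edgeR 4.0.16 (TMM, filterByExpr, glmQLFit and glmQLFTest) in 1 model of 4 group means over 14 libraries, with Benjamini-Hochberg adjustment over the 15458 genes kept. Genes were called at a fold change over 1.5 with adjusted p under 0.05, after the fold limit in the study's text, which states no adjusted p for the RNA-seq. The filter removed at most 0.0694% of counts in any library. DESeq2 1.42.0, limma 3.58.1 on log2(FPKM + 1) and log2(FPKM + 0.1) for genes with a mean FPKM of at least 0.1, other size factors, no filter, a replicate block and leaving out each library were alternatives. A further alternative, chosen after seeing the data, left out the 2 libraries of highest mitochondrial share, OE-CTD 4 and OE-WD 4. Scripts were tested on simulated data.

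Lists comprised other imprinted genes, the Dlk1-Dio3 cluster, IGF and insulin signalling, CDK inhibitors, Grb7 family adaptors, CTCF and imprint maintenance, and markers of satellite cells, fibroblasts, endothelium, smooth muscle and pericytes, slow, fast and all muscle fibers, adipocytes, macrophages, Schwann cells, tendon and epidermis. Members and lists were chosen with earlier results of these data known. A member's fold change was given where its unadjusted p was under 0.05 or where it was the highest or lowest of the members; other lists gave genes with adjusted p under 0.05, at most 5, or else their highest and lowest; markers gave genes with adjusted p under 0.05. The 3 nearest genes per member were given by r, apart from 1 that is not reported here. CPM used a prior count of 2 for logarithms. Correlations used 100000 permutations.

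Libraries of a group differed beyond sampling noise, with chi-square per degree of freedom from 7.50 to 48.1, so none was counted as the same library deposited again; this does not show that they came from separate animals. Among OE libraries 1 to 3 of a diet the values ran from 7.50 to 14.5, and among CT libraries of a diet from 16.1 to 48.1. Between OE-CTD 4 or OE-WD 4 and the other OE libraries of its diet they ran from 35.6 to 41.2, although OE-WD 4 shares its column number with its group. Replicate numbers come from the labels. Deviations from group means of same-numbered CT-WD and CT-CTD libraries correlated at r = 0.385, 0.123 and 0.203 across genes, which are not independent replicates. Libraries with unlike numbers were not compared, so this check cannot show whether the numbers pair the libraries.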

Additional observations from a re-analysis of the deposited data

Results flagged for a closer look

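In 84 groups of 4 libraries, 5 had a library whose gap to the nearest of the others took up 0.891 or more of the group's range. Whether chance gives as many was not tested. The CT groups, with 3 libraries each, were not examined in this way, so outlying CT libraries could not be flagged. Rian in CT-WD 1, for example, measured 9.07 CPM against 6.09 and 6.18 CPM in the other CT-WD libraries. The 5 groups are not 5 separate results. Rian in OE-CTD 4 is counted in CPM and in FPKM, and the fast fibre and muscle fibre lists share Myh4 and Tnnt3. For Rian, OE-CTD 4 had the lowest level at 5.72 CPM, with the other OE-CTD libraries between 9.48 and 9.70. In the authors' FPKM, Rian had 0.348 in OE-CTD 4 and 0.566 to 0.578 in the other OE-CTD libraries. For Cdkn1c, OE-CTD 3 had the lowest level at 17.0 CPM, with the others between 20.3 and 20.5. The summed level of fast fibre genes was highest in OE-CTD 4 at 158914 CPM, against 117328 to 121795 CPM in the others. The summed level of muscle fibre genes was also highest in OE-CTD 4 at 165949 CPM, against 118507 to 123695 CPM. OE-WD 4 was high in its group as well, with 165197 CPM of fast fibre genes against 124091 to 131589 and 170871 CPM of muscle fibre genes against 121819 to 132831. OE-CTD 4 and OE-WD 4 are also the libraries with the highest mitochondrial shares (14.9% and 14.5%). No member passed the adjusted interaction test in edgeR or DESeq2. At an unadjusted p with a ratio of folds over 1.5, 0 passed in edgeR with all libraries, and 1, Mest, passed with no filter or without CT-CTD 1, CT-WD 1, OE-CTD 3 or OE-WD 1. Over all genes, 417 passed with all libraries, 904 with no filter and 777 without CT-WD 1. Leaving out single libraries gave 368 to 777 genes.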

How the results depend on the processing

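Counts of called genes are given for diet in CT, diet in OE, genotype under CTD, genotype under WD and the interaction, in that order; edgeR gave 0, 1, 295, 87 and 0. Size factors of DESeq2 in edgeR moved none of these counts by over 1.5 times. DESeq2 called 27, 1, 488, 290 and 1, and 1 member, Mest, in OE-WD against CT-WD. With no filter on low counts, edgeR called 88, 5, 570, 401 and 29 genes, and at an unadjusted p 832 and 667 for diet, 1412 for genotype under WD and 904 for the interaction; it called 1 member in OE-WD against CT-WD and 1 in the interaction at an unadjusted p. limma on log2(FPKM + 1) called 108 genes in OE-CTD against CT-CTD and 15 in OE-WD against CT-WD, and at an unadjusted p 141, 56, 375, 285 and 184 in the 5 comparisons. It called 0 members in OE-CTD against CT-CTD, adjusted or unadjusted (1 and 2 in edgeR, 1 adjusted with DESeq2), and 0 unadjusted in CT-WD against CT-CTD (1 in edgeR). On log2(FPKM + 0.1), limma called 177 and 8 genes in OE-CTD against CT-CTD and OE-WD against CT-WD, and in the former 0 members, or 1 unadjusted. The cause of these differences was not tested. Without OE-CTD 4 and OE-WD 4, chosen after seeing the data, edgeR called 0 genes in OE-WD against OE-CTD and 4 in OE-WD against CT-WD. In OE-CTD against CT-CTD it called 339 of 15356 genes and 2 of 10 members tested, Meg3 and Rian (Rian 0.76, adjusted p = 0.0288). OE-CTD 4 was the lowest OE-CTD library for both genes (17.1 and 5.72 CPM), and leaving it out alone also gave 2 members. This setting is therefore no separate check of Meg3 and Rian. Fewer libraries were fitted.

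Leaving out each library in turn gave 0 to 41 genes in CT-WD against CT-CTD (413 to 860 unadjusted), 0 to 2 in OE-WD against OE-CTD, 64 to 440 in OE-CTD against CT-CTD, 4 to 905 in OE-WD against CT-WD (595 to 1875 unadjusted) and 0 to 1 in the interaction (368 to 777 unadjusted). Members called ranged from 0 to 2 in OE-CTD against CT-CTD (1 to 3 unadjusted), and at an unadjusted p from 0 to 1 in CT-WD against CT-CTD, 1 to 4 in OE-WD against CT-WD and 0 to 1 in the interaction. The largest counts in CT-WD against CT-CTD and OE-WD against CT-WD came without CT-WD 1.

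With the replicate block, edgeR called 0, 1, 388, 77 and 0 genes. The block ended the calls of Stc1 (1.65, adjusted p = 0.0578) and Actc1 (1.30, adjusted p = 0.0635) in OE-CTD against CT-CTD and reversed Cdkn2c in OE-WD against CT-WD (-0.00713), and it changed no other call among the genes named. For the other comparisons, same-numbered libraries had r = 0.0711, 0.138, 0.142 and 0.338 for OE-WD and OE-CTD. They had r = 0.0465, -0.113 and -0.122 for OE-CTD and CT-CTD, and -0.230, -0.158 and -0.0647 for OE-WD and CT-WD. The values for OE-WD and OE-CTD overlapped those for CT-WD and CT-CTD, and libraries with unlike numbers were not compared. The check therefore cannot show which libraries are paired.

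Of 50 fold changes of members, 10 in each of 5 comparisons, 27 kept their sign under every alternative and 23 did not, none of the latter called; 9 of the 23 were in OE-WD against OE-CTD. Ranges over single libraries left out reached -0.45 to 0.80 for Igf2 in CT-WD against CT-CTD, -0.56 to 0.68 for Igf2 in OE-WD against CT-WD and -0.08 to 1.04 for Mest in OE-CTD against CT-CTD. Among the fold changes and correlations given in the text, those that changed sign were Igf2 in OE-WD against OE-CTD without the libraries of highest mitochondrial share (-0.00643), Mirg in OE-WD against OE-CTD without OE-WD 4 (0.0781; down to -0.38 without OE-WD 1) or the mitochondrial pair (0.125), Mirg in OE-WD against CT-WD without CT-WD 2 (-0.0821) or OE-WD 1 (-0.00515; up to 0.92 without CT-WD 1), Grb10 in OE-WD against OE-CTD without OE-CTD 3, OE-CTD 4, OE-WD 1 or OE-WD 3 (0.0186 to 0.0382; down to -0.16 without OE-WD 4), Cdkn2d in OE-WD against OE-CTD without OE-WD 3 (-0.0646; up to 0.17 without OE-WD 4), and Cdkn2c in OE-WD against CT-WD without CT-WD 1 (-0.165), OE-WD 2 (-0.0173), OE-WD 4 (-0.00636) or the mitochondrial pair (-0.0101), and up to 0.18 without CT-WD 2. Grb7 was -0.0456 in CT-WD against CT-CTD without CT-CTD 3, 0.183 in OE-WD against OE-CTD without OE-CTD 1 and 0.0244 in OE-WD against CT-WD without OE-WD 1, and reached 0.53, -0.77 and -0.63 at the other end of these ranges. Grb14 in the interaction was -0.00295 in limma on log2(FPKM + 1), -0.0996, -0.0692 and -0.0418 without CT-WD 2, OE-WD 2 and OE-WD 4, and -0.0328 without the mitochondrial pair, and up to 0.15 without OE-WD 1. The correlation of Igf2 and Cdkn1c was 0.0690 for deviations from group means and 0.263 without the libraries farthest from the median of Igf2. Depth limits Igf2 and Mirg most, with as few as 3 and 4 counts.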

Other observations

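CT-WD 3 stood apart from the other libraries in several values, noticed after they were seen. Slc22a3, an imprinted transporter gene beside Igf2r, measured 25.1 CPM in this library, against 5.89 and 7.34 CPM in the other CT-WD libraries and 2.61 to 6.56 CPM in the rest. The summed level of satellite cell and regeneration genes was 499.6 CPM there, against 192 to 292 CPM in the other 13 libraries. Myf6 alone gave 301.6 CPM of that sum (60.4%). The median log2 level of the listed genes, each relative to its mean over libraries, was 0.07 in CT-WD 3, below CT-CTD 3 (0.23) and OE-CTD 3 (0.20). A rise across the list in CT-WD 3 is therefore not shown. Mouse Myc was 13.3 CPM, the highest of the 14 libraries, and Igf2 was lowest there with 3 counts. Adjusted p-values for CT-WD against CT-CTD are given above for Slc22a3.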
